A study of Mus musculus with 4 samples.

Results

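The genes described here encode the constant regions of antibodies. They are the heavy chain genes Ighm, Ighd, Igha, Ighg1, Ighg2b, Ighg2c and Ighg3 and the kappa light chain gene Igkc. They were found by the symbol deposited with each row of the table, or by the symbol of its Ensembl identifier where none was given. Of these 8 genes, 7 had a row among the 14226 rows of the table, 1 row each. No row carried Ighd, which is not analysed here.

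RNA was sequenced from splenocytes, the mixed cells of the spleen, taken from C57BL/6N mice. Of the 4 libraries, 2 came from mice of genotype vcS5 +/T, a transgenic line whose samples carry the name line1, and 2 came from wild-type (wt) mice. The series title names an activating STAT5 mutation and peripheral T cell lymphoma, so the comparison asks how the spleen transcriptome of the transgenic mice differs. The labels call the libraries of a group biological replicates, give 1 line, and do not state the promoter of the transgene, the age of the mice or whether animals were pooled. Values are FPKM, which are fragments scaled by transcript length and library size. This scaling is meant to make levels comparable between genes and depends on the transcript length used. Median FPKM was 12.2 and 12.6 in vcS5 and 12.2 and 12.5 in wild type. The absolute depth is unknown from FPKM, and no counting interval is given. Stat5a, a gene of the STAT5 transcription factors, had 105 and 123 FPKM in vcS5 against 13.9 and 17.0 FPKM in wild type.

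An antibody is built from heavy and light chains, and the constant region of the heavy chain sets its isotype. Naive B cells make IgM from Ighm, the constant gene nearest to the rearranged variable region. In class switch recombination, an activated B cell deletes DNA between repetitive switch regions so that a constant gene further along the locus (gamma, epsilon or alpha) follows the variable region. Plasma cells secrete the product in large amounts, and their constant region transcripts are among the most abundant in a spleen. In mice IgG3 is best known from responses to T cell independent antigens such as bacterial polysaccharides, and IgG2c, carried by C57BL/6 in place of IgG2a, from responses shaped by interferon gamma.

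The constant genes for IgG subclasses are paralogs, so it matters whether reads of 50 bases can tell them apart. The start of the first constant exon (CH1), read from the GENCODE vM21 transcripts (GRCm38, the assembly also called mm10) from the first whole codon, shows how far they differ. Each line is 60 bases on the minus strand of chromosome 12, and capitals mark bases that differ from Ighg3.
Ighg3, chr12:113361171-113361230: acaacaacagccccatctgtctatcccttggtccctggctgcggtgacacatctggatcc
Ighg1, chr12:113330462-113330521: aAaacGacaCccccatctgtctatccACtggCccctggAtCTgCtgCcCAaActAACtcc
Ighg2b, chr12:113307872-113307931: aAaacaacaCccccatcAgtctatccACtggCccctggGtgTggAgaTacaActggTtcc
Ighg2c, chr12:113288871-113288930: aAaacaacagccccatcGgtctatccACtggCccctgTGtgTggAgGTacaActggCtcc
Ighg1 differed from Ighg3 at 17 of these 60 bases, Ighg2b at 12 and Ighg2c at 13. Over the whole CH1 exon of 291 bases the differences numbered 61, 62 and 63 in the same order of genes.

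The hinge exon, the flexible link between the antigen-binding arms and the stem of the antibody, differs most plainly and is shown for that reason. Capitals mark in-frame codons TGT and TGC, which encode the cysteines that can link heavy chains.
Ighg3, chr12:113360529-113360576: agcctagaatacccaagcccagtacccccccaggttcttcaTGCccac
Ighg1, chr12:113329844-113329882: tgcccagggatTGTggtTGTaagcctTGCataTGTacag
Ighg2b, chr12:113307261-113307326: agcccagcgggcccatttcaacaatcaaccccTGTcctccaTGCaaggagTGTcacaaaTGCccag
Ighg2c, chr12:113288263-113288325: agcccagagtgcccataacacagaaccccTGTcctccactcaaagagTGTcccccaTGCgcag
The exon holds 48 bases in Ighg3, 39 in Ighg1, 66 in Ighg2b and 63 in Ighg2c. Of the 1033 windows of 50 bases in the secreted Ighg3 transcript, 0 occurred in the transcripts of another constant gene, and the count was also 0 for Ighm, Ighg1, Igha and Igkc. Ighg2b and Ighg2c shared windows with each other, 56 of 1065 in Ighg2b (5.26%) and 70 of 1165 in Ighg2c (6.01%), so their separate values are less certain. These counts are of exact matches and take no account of reads aligned with mismatches.

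Ighg3 was 14.5-fold lower in vcS5 than in wild type, and the other 6 constant genes did not pass the test. The test was limma on log2(FPKM + 1) over every row of the table, with an adjusted p threshold of 0.05. It called 1241 rows (8.72%), 653 higher and 588 lower in vcS5. With libraries rescaled to a common sum outside the immunoglobulin rows, 779 were higher and 401 lower, and the median of all rows moved to 0.11 on the log2 scale, against 0.00125 as deposited. Among the 7 constant genes with a row, 1 was called lower and 0 higher, against 4.13% of all rows called lower and 4.59% called higher. Their median log2 change was -0.50. In bulk RNA, fewer cells of a type and less RNA per cell cannot be told apart.

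Ighg3 (IgG3; mm10 chromosome 12, 113359665 to 113361232, minus strand) had 20.98 and 6.82 FPKM in vcS5, against 235 and 168 FPKM in wild type. Both vcS5 libraries lay far below both wild-type libraries. The log2 change was -3.93 (SE 0.504, adjusted p = 0.0168 by limma, n = 2 each), and 0.141% of all rows had a lower value. The call was lost by limma without vcS5 replicate 2 (log2 change -3.18, adjusted p = 0.0625), without wild type replicate 1 (-3.69, 0.0952) and without wild type replicate 2 (-4.17, 0.0790). Without vcS5 replicate 1 it held, at -4.67 with an adjusted p of 0.0278 by limma. In the authors' deposited table the q for Ighg3 was 9.95e-04.

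Igha, the constant gene of IgA, the main antibody of mucosal secretions, had 607 and 989 FPKM in vcS5, against 1881 and 1314 FPKM in wild type. The groups did not overlap, but the change did not pass (log2 change -1.02, SE 0.331, adjusted p = 0.137 by limma). In the authors' deposited table Igha was called lower, with a q of 9.95e-04. Ighg2b (IgG2b) had 552 and 380 FPKM in vcS5 and 684 and 613 FPKM in wild type, again without overlap (log2 change -0.50, SE 0.239, adjusted p = 0.276 by limma).

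Ighg2c (IgG2c) overlapped between the groups, with 1022 and 404 FPKM in vcS5 and 908 and 818 FPKM in wild type. vcS5 replicate 1 was the highest of the 4 libraries and vcS5 replicate 2 the lowest. Its log2 change was -0.42 (SE 0.453, adjusted p = 0.641 by limma) and 0.25 without vcS5 replicate 2.

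Ighg1, the constant gene of IgG1, varied most within wild type. It had 122 and 258 FPKM in vcS5 and 528 and 106 FPKM in wild type, so the highest and the lowest of the 4 libraries were both wild type. The log2 change was -0.41 (SE 0.805, adjusted p = 0.812 by limma), but 0.74 when wild type replicate 1 was left out and 0.12 when vcS5 replicate 1 was. The authors' deposited table called Ighg1 lower in vcS5, with a q of 0.0108, although its libraries overlapped.

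Ighm, the constant gene of IgM, was the most abundant heavy chain gene, with 6063 and 2901 FPKM in vcS5 and 5716 and 5062 FPKM in wild type. The wild-type values lay between those of vcS5, and no change was detected (log2 change -0.36, SE 0.433, adjusted p = 0.682 by limma). Without vcS5 replicate 2 the log2 change was 0.17. The row spans chromosome 12 from 113418583 to 113429567, which reaches into the joining segments, and shares this locus with other rows, 4 in all, so reads may be divided among them. The other 3 rows carry the names of genes annotated as miRNA genes, and in each both vcS5 libraries lay below both wild-type libraries. Gm24022 had 30079 and 33344 FPKM in vcS5, against 59176 and 75587 FPKM in wild type (adjusted p = 0.328 by limma). Gm22175 had 10639 and 16552 FPKM in vcS5, against 29600 and 35461 FPKM in wild type (adjusted p = 0.183 by limma). Gm25747 had 3830 and 5628 FPKM in vcS5, against 7522 and 12609 FPKM in wild type (adjusted p = 0.198 by limma). FPKM depends on the transcript length used, which is not given here for these rows, so their levels cannot be set against that of Ighm. Their part in the level of Ighm, in its share and in its level beside B cell markers was not tested. Nor was their part in the heavy chain sum and the ratio of Igkc to that sum.

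Igkc, which encodes the constant region of kappa light chains, had 12311 and 10156 FPKM in vcS5, against 23430 and 19172 FPKM in wild type. The vcS5 libraries were both lower, 1.90-fold by the means, and the change did not pass (log2 change -0.92, SE 0.413, adjusted p = 0.247 by limma). The authors' deposited table gave a q of 0.360. Counted by overlap alone, both vcS5 libraries lay below both wild-type libraries for Ighg3, Igha, Ighg2b and Igkc, 4 of 7 genes, against 27.5% of all rows. By the authors' q, 3 of 7 were lower, against 6.14% of all rows.

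**Figure D1:**
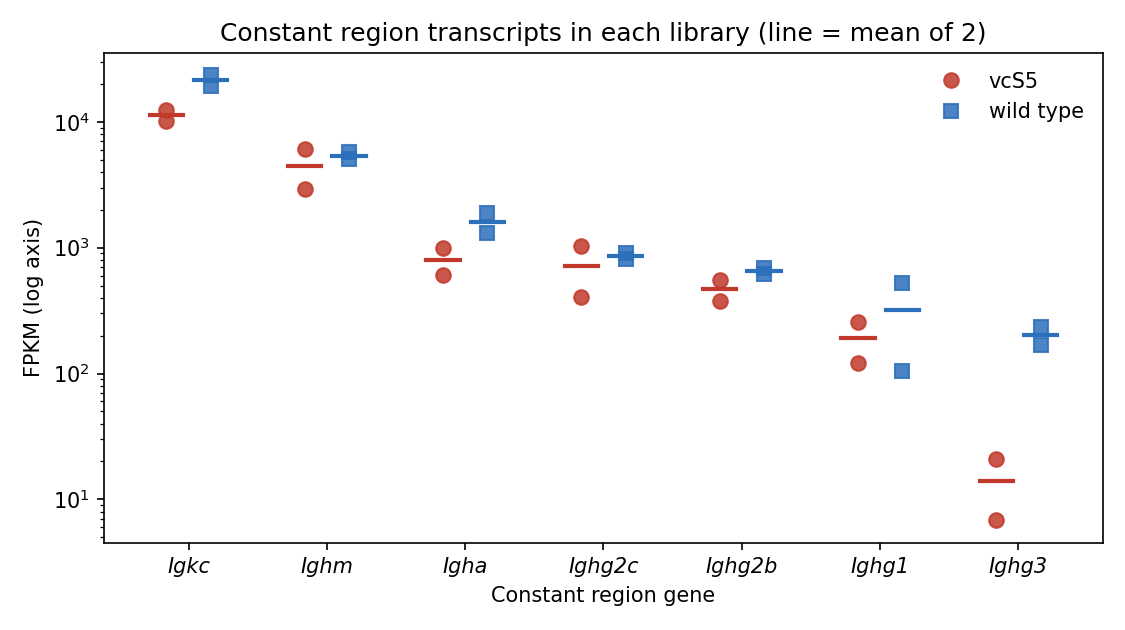
FPKM (log axis) of the 7 constant region genes in the 2 vcS5 libraries (circles) and the 2 wild-type libraries (squares), with lines at the mean of each group. Ighg3 lies at 20.98 and 6.82 FPKM in vcS5 against 235 and 168 FPKM in wild type, while the points of Ighm, Ighg2c and Ighg1 overlap between groups.

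The order of mean levels was the same in vcS5 and in wild type, from Igkc through Ighm, Igha, Ighg2c, Ighg2b and Ighg1 to Ighg3. In vcS5 the libraries of Igha and Ighg2c overlapped, as did those of Ighg2c and Ighg2b. Igkc stood above Ighm, and Ighg1 above Ighg3, without overlap in vcS5. In wild type Ighg1 and Ighg3 were the neighbours that overlapped.

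Isotype shares are taken within a library and do not depend on how it was scaled. The heavy chain constant sum was 8386 and 4939 FPKM in vcS5 and 9951 and 8080 FPKM in wild type, so that the groups overlapped. With 2 libraries against 2, the two-sided exact permutation test cannot give a p below 0.333. Of the values tested in this way, 17 per library were adjusted together, and those at 0.333 have an adjusted p of 0.708 by Benjamini-Hochberg. Further shares and ratios were put to the same permutation test without adjustment.

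Ighg3 made up 0.250% and 0.138% of the heavy chain sum in vcS5, against 2.36% and 2.07% in wild type (exact permutation p = 0.333). Its libraries did not overlap, and the mean difference of -2.02 percentage points lay between -2.17 and -1.88 when single libraries were left out. Among the switched isotypes, which leave out Ighm, the share of Ighg3 was 0.903% and 0.335% in vcS5, against 5.55% and 5.55% in wild type. On the log2 scale, Ighg3 minus the mean of the other 3 IgG genes was -4.23 and -5.45 in vcS5, against -1.55 and -1.16 in wild type.

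The shares of the other isotypes overlapped between the groups. Ighm took 72.3% and 58.7% of the heavy chain sum in vcS5 and 57.4% and 62.6% in wild type (exact permutation p = 0.667). Igha took 7.24% and 20.0% in vcS5 and 18.9% and 16.3% in wild type. The vcS5 libraries thus lay on both sides of wild type for Igha, with the low IgA share in vcS5 replicate 1, the library with the high Ighm share. The direction for Ighm and Igha turned without vcS5 replicate 1, to differences of -1.30 and 2.45 percentage points.

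For the IgG subclasses other than IgG3, Ighg2b held 6.59% and 7.69% in vcS5 and 6.87% and 7.59% in wild type. Ighg2c held 12.2% and 8.17% in vcS5 and 9.12% and 10.1% in wild type, and Ighg1 1.45% and 5.22% in vcS5 and 5.31% and 1.31% in wild type. The 4 IgG genes together made up 20.5% and 21.2% in vcS5 and 23.7% and 21.1% in wild type (exact permutation p = 0.667), a sum that overlapped between the groups.

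**Figure D2:**
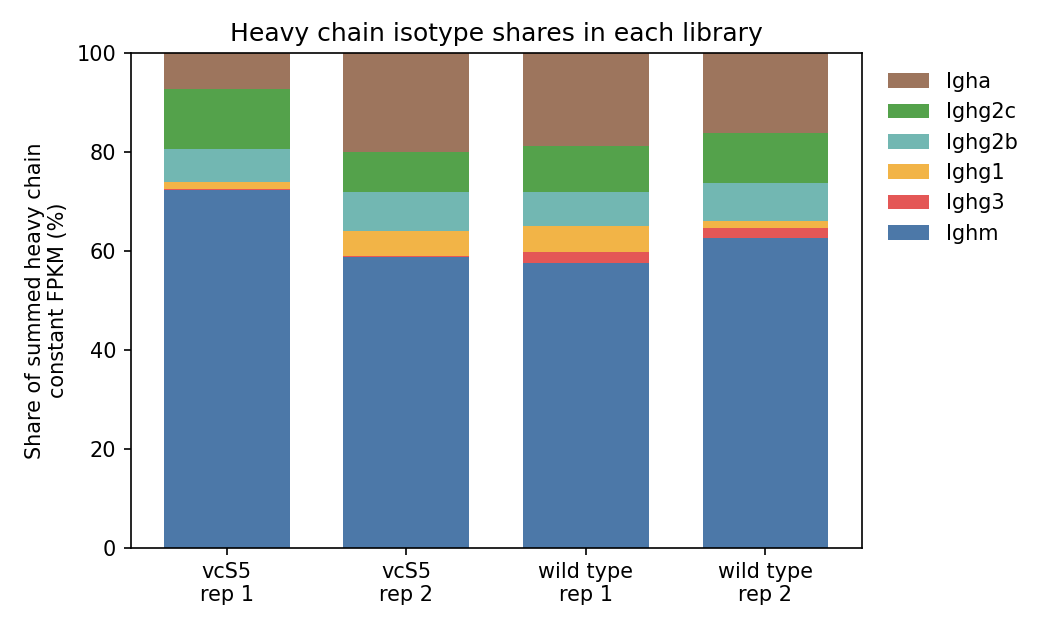
Share of each isotype (percent) in the summed FPKM of the 6 heavy chain constant genes with a row, for each vcS5 and wild-type library. The Ighg3 band is 0.250% and 0.138% in vcS5 against 2.36% and 2.07% in wild type, and the Igha band runs from 7.24% to 20.0% between the vcS5 libraries.

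Among light chain genes, 2 lambda rows passed the test and Igkc did not, which is no test of the difference between them. Igkc per heavy chain constant FPKM was 1.47 and 2.06 in vcS5, against 2.35 and 2.37 in wild type, without overlap (exact permutation p = 0.333). That heavy chain sum lacks Ighd and is mostly Ighm, whose row shares its locus with other rows. What this does to the ratio was not tested. The locus of the lambda constant gene Iglc2 holds 9 rows, so reads may be divided among them. Of these rows, 2 carry Iglc2, and both fell. In the authors' deposited table the larger had a q of 9.95e-04 and the smaller a q of 0.152. The larger had 296 and 280 FPKM in vcS5, against 798 and 944 FPKM in wild type (log2 change -1.59, SE 0.180, adjusted p = 0.0127 by limma). Vpreb3, a gene of the VpreB family expressed in B lineage cells, fell too (log2 change -1.10, adjusted p = 0.0223 by limma). The FPKM ratio of Igkc to the Iglc2 rows was 34.2 and 30.8 in vcS5 and 25.2 and 17.4 in wild type. With any 1 library left out, 0 of these 3 light chain rows passed by limma.

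Markers of B cells, the cells that carry these transcripts, were lower in vcS5. Of 12 markers, 11 fell and 0 rose, against 4.13% of all rows called lower, with a median log2 change of -1.38 and a range from -1.56 to -1.15. Ms4a1, the gene of the surface antigen CD20, had 212 and 170 FPKM in vcS5, against 517 and 496 FPKM in wild type (log2 change -1.41, adjusted p = 0.0162 by limma). Pax5, a transcription factor of B cell identity, fell by 1.56 and Blnk, an adaptor protein of the B cell receptor, by 1.41 on the log2 scale, and Cd79a, a signalling chain of that receptor, also fell (adjusted p = 0.0216 by limma). The 1 marker that did not pass, Ebf1, a transcription factor of early B cells, had a log2 change of -1.38 and an adjusted p of 0.0711 by limma. With any 1 library left out, 0 of the 12 passed by limma, with medians from -1.46 to -1.23.

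Each constant gene was therefore set beside the mean log2 level of these 12 markers in its own library. That mean was 6.70 in vcS5 and 8.05 in wild type, a change of -1.35. A row with no change in level is therefore higher by 1.35 on this scale, and the median log2 change of all rows was 0.00125. With all libraries in, each higher difference given below is smaller than 1.35, so being higher here is not particular to the constant genes. On this scale Ighm stood at 5.81 and 4.86 in vcS5, against 4.56 and 4.12 in wild type, a difference of 0.99 (exact permutation p = 0.333). Ighg2b and Ighg2c were higher by 0.85 and 0.93 and Igkc by 0.43, each without overlap and with the same p. With single libraries left out these differences ran from 0.52 to 1.47 for Ighm, 0.64 to 1.07 for Ighg2b, 0.32 to 1.54 for Ighg2c and 0.15 to 0.71 for Igkc. Ighg3 went the other way, at -2.30 and -3.67 in vcS5, against -0.03 and -0.79 in wild type (difference -2.58, exact permutation p = 0.333). Igha and Ighg1 overlapped, with differences of 0.33 and 0.94. With the mean of Cd79a and Cd79b in place of the 12 markers the Ighg3 difference was -2.50.

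**Figure D3:**
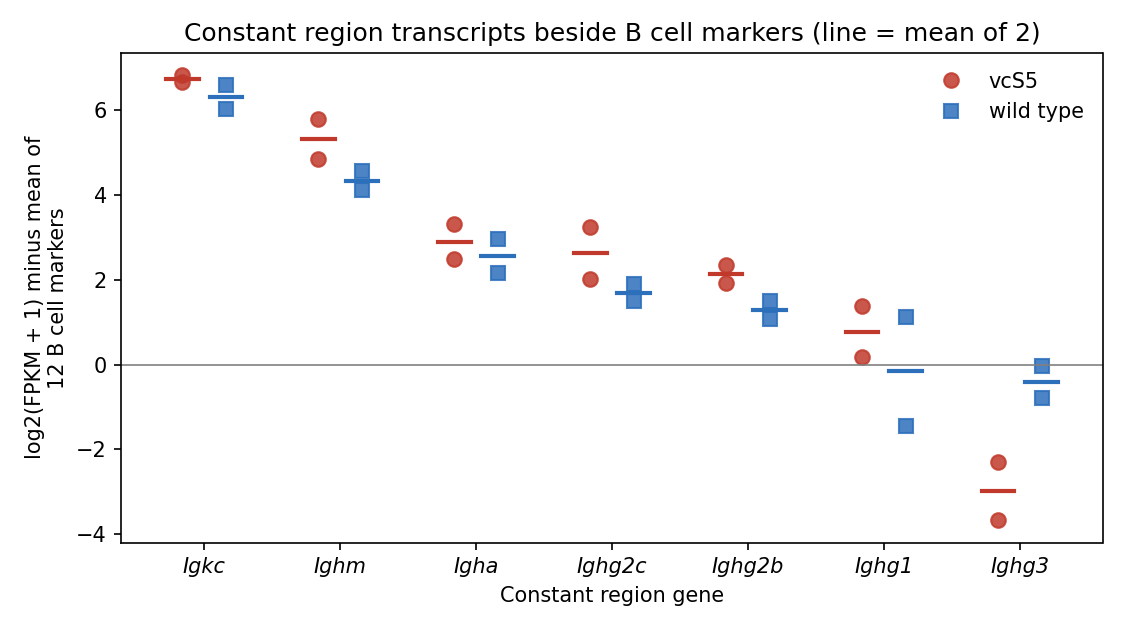
log2(FPKM + 1) of each constant region gene minus the mean of 12 B cell markers in the same library, for vcS5 (circles) and wild type (squares), with lines at the mean of each group. Ighm lies at 5.81 and 4.86 in vcS5 above 4.56 and 4.12 in wild type, and Ighg3 at -2.30 and -3.67 in vcS5 below -0.03 and -0.79 in wild type. The marker mean itself changed by -1.35, so a row with no change in level would lie higher by 1.35 in vcS5.

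Between the end of Igha and the start of Ighm, 9 rows without an identifier were listed, at means of 1.15 to 9.50 FPKM in wild type. Their strand is not given. At these levels log2(FPKM + 1) understates changes, so these rows cannot be set against Ighg3 by log2 change. Each had a mean log2 value below wild type in vcS5, with log2 changes from -1.11 to -0.12 and a median of -0.77, and in 5 of 9 both vcS5 libraries lay below both wild-type libraries, against 27.5% of all rows. By limma 1 passed, at chromosome 12, 113400875 to 113406178, between Ighd and Ighg3, with 0.604 and 0.319 FPKM in vcS5 against 2.23 and 2.04 FPKM in wild type (adjusted p = 0.0472). The row nearest to Ighg3 (113361558 to 113363533) lies upstream of it, with 325 bases between them, and had 1.19 and 0.321 FPKM in vcS5 against 2.44 and 2.07 FPKM in wild type (log2 change -0.94, adjusted p = 0.137 by limma). By mean FPKM the row that passed was 4.62-fold lower in vcS5, and the row nearest to Ighg3 was 2.99-fold lower. Ighe, the constant gene of IgE, was near the lower end of the table. It had 1.67 and 2.40 FPKM in vcS5 and 3.31 and 1.66 FPKM in wild type.

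**Figure D4:**
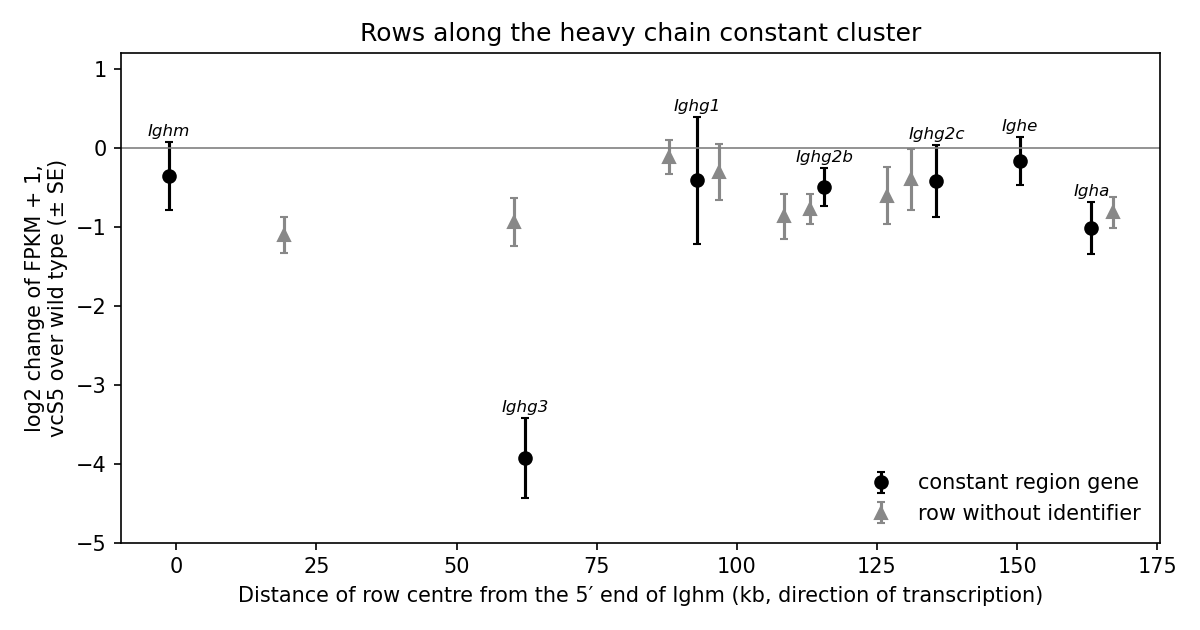
log2 change of vcS5 over wild type (± SE from limma) of rows along the heavy chain constant cluster. The horizontal axis is the distance of the row centre from the 5′ end of Ighm in kb. The joining segment row and the rows named for miRNA genes at the Ighm locus are not drawn. Circles are constant genes, including Ighe, and triangles are the 9 rows without identifier. Ighg3 lies at -3.93 and the triangles run from -1.11 to -0.12. Because log2(FPKM + 1) understates changes of such low rows, the depth of the triangles cannot be set against that of Ighg3.

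Genes that carry out class switching showed no call. Of 26 listed genes, 24 had a row and 0 passed by limma, with a median log2 change of 0.02. At an unadjusted p under 0.05 there were 3, against 25.3% of all rows in either direction, and the authors' deposited table called 0. Supt5, a transcription elongation factor, had 60.6 and 72.9 FPKM in vcS5 and 60.03 and 74.3 FPKM in wild type. Atm, a kinase of the DNA break response, had 47.2 and 40.5 FPKM in vcS5 and 47.2 and 53.1 FPKM in wild type.

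Of 4 factors that process constant region transcripts, 0 passed by limma. At an unadjusted p under 0.05 there were 2, against 25.3% of all rows in either direction. Zfp318, which is needed for IgD transcripts in mouse B cells, had 37.2 and 36.4 FPKM in vcS5, against 57.2 and 79.3 FPKM in wild type (log2 change -0.85, adjusted p = 0.0605 by limma). Cstf2, a subunit of the cleavage stimulation factor, had a log2 change of 0.01. Ell2, an elongation factor that favours the secreted form in plasma cells, is named after its values were seen, since it was the 1 gene of the list lower in the authors' deposited table. It had 8.21 and 6.71 FPKM in vcS5, against 15.3 and 12.1 FPKM in wild type (adjusted p = 0.0647 by limma).

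Genes of the cytokines and receptors that direct the choice of isotype moved both ways. Of 20 rows for 19 genes, 3 rose and 6 fell, against 4.59% of all rows called higher and 4.13% called lower. The median log2 change of these 20 rows was -0.33. Ifng, which encodes interferon gamma, rose, with 24.98 and 21.9 FPKM in vcS5 against 7.72 and 4.80 FPKM in wild type (log2 change 1.78, SE 0.232, adjusted p = 0.0169 by limma). Tbx21, the gene of the transcription factor T-bet, rose to 30.5 and 36.3 FPKM in vcS5, against 12.7 and 9.998 FPKM in wild type (log2 change 1.48, adjusted p = 0.0146 by limma). Ifngr1, the ligand-binding chain of the interferon gamma receptor, rose as well, with 135 and 172 FPKM in vcS5 against 77.96 and 80.7 FPKM in wild type (log2 change 0.94, adjusted p = 0.0363 by limma), and is named after its values were seen. Ifngr2, the other chain of that receptor, fell to 19.4 and 13.8 FPKM in vcS5, against 36.7 and 41.6 FPKM in wild type (adjusted p = 0.0292 by limma). Tnfrsf13c, the receptor for the B cell survival factor BAFF, fell by 1.28 on the log2 scale (adjusted p = 0.0269 by limma). Left out in turn, each library ended the Tbx21 call (adjusted p from 0.0663 to 0.124 by limma). The Ifng call held without wild type replicate 1 (0.0426) and was lost without each of the others (0.0635 to 0.125), and by limma the list had 1 rise at most and 0 falls with a library left out.

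Plasma cell markers had 3 of 13 lower and 0 higher, against 4.13% of all rows called lower and 4.59% called higher. The median log2 change of these markers was -0.52. Pou2af1, a coactivator of immunoglobulin transcription, fell by 1.31 on the log2 scale, Irf4, a transcription factor of plasma cell differentiation, by 1.28, and Mzb1, a chaperone for IgM assembly, by 1.17. The adjusted p-values by limma were 0.0195, 0.0158 and 0.0157 in that order. These 3 changes lay within the range of the B cell markers, from -1.56 to -1.15. The other 10 plasma cell markers did not pass. Among them Xbp1 had a log2 change of -0.52, while Prdm1 and Edem1 went the other way, at 0.21 and 0.12. Xbp1, Prdm1 and Edem1 are named after their values were seen. Igj, the joining chain that links IgM and IgA into polymers, had 554 and 372 FPKM in vcS5, against 965 and 566 FPKM in wild type (log2 change -0.70, adjusted p = 0.282 by limma), and a q of 0.00668 in the authors' deposited table. Sdc1, the syndecan 1 gene, had 6.57 and 5.94 FPKM in vcS5 and 9.20 and 7.61 FPKM in wild type (adjusted p = 0.244 by limma). With any 1 library left out, 0 of the 13 passed by limma, with medians between -0.72 and -0.32.

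The list of immunoglobulin binding receptors had 1 row higher and 5 lower of 10, against 4.59% of all rows called higher and 4.13% called lower. The row that rose was Fcgrt, the heavy chain of the neonatal Fc receptor, which protects IgG from degradation. It had 91.1 and 109 FPKM in vcS5, against 16.6 and 16.7 FPKM in wild type (log2 change 2.51, SE 0.149, adjusted p = 0.00241 by limma), 6.01-fold higher in vcS5. The call held with each library left out, with adjusted p-values from 0.0319 to 0.0449 by limma. Faim3, the Fc receptor of IgM, fell by 1.38 on the log2 scale. Fcer2a, the low-affinity IgE receptor of B cells, fell by 1.34 in its larger row. Fcamr, a receptor for IgA and IgM, fell by 1.18. Of the 5 lower rows, 2 belong to Fcer2a and 1 to Fcer1g, a signalling chain of Fc receptors. With any 1 library left out, 0 rows of this list passed as lower by limma.

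**Figure D5:**
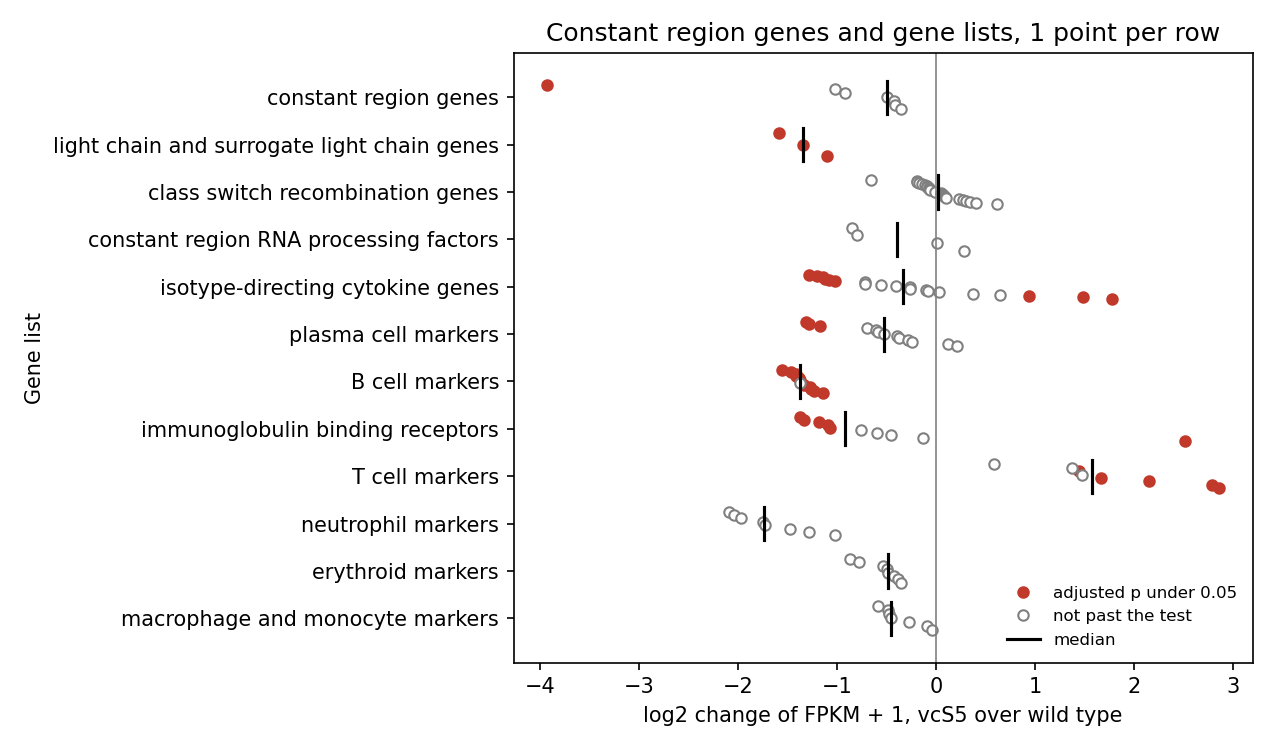
log2 change of vcS5 over wild type for each row of the constant region genes and of 11 gene lists, with filled points past an adjusted p of 0.05 by limma, open points not past it, and a line at each median. The B cell markers lie between -1.56 and -1.15, the constant region genes other than Ighg3 between -1.02 and -0.36, and Fcgrt at 2.51.

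Markers of other cells in the spleen differed between libraries. T cell markers had 5 of 8 higher and 0 lower, against 4.59% of all rows called higher and 4.13% called lower. All 8 had an unadjusted p under 0.05 by limma, against 25.3% of all rows in either direction. The authors' deposited table called 8 of them higher, against 11.5% of all rows called in either direction. The summed levels of these markers were 2677 and 3455 FPKM in vcS5 and 678 and 947 FPKM in wild type. With a library left out, 0 to 4 of them were higher by limma. Of 8 neutrophil markers 0 passed by limma, and 5 had an unadjusted p under 0.05, against 25.3% of all rows in either direction. Against 6.14% of all rows, the authors' deposited table called 8 of these markers lower. Their sum was 976 and 938 FPKM in vcS5 and 6067 and 1798 FPKM in wild type, highest in wild type replicate 1, where Igkc, Igha, Ighg1, Ighg2b and Ighg3 were also highest. By limma 7 neutrophil markers were lower without wild type replicate 2, and 0 without each of the others. Of 8 erythroid markers 0 passed, with 0 at an unadjusted p under 0.05 and 0 in the authors' table. Their sum was 524 and 1562 FPKM in vcS5 and 1055 and 1466 FPKM in wild type, lowest in vcS5 replicate 1, where Ighm and Ighg2c were highest. Of 7 macrophage and monocyte markers 0 passed by limma, with 1 at an unadjusted p under 0.05 and 0 in the authors' table, and their sum was 79.2 and 123 FPKM in vcS5 and 144 and 126 FPKM in wild type. No marker of these lists was listed at 0, and their part in the levels of the constant genes was not tested.

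Rows with the most similar pattern were sought among 9391 rows with a symbol outside the immunoglobulin genes, by Euclidean distance of centred log2 values over the 4 libraries. Nearest to Ighg3 were Gm22334, Gm15893 and Gm24261, at distances of 1.13, 1.15 and 1.19. Gm15893 had 3.53 and 2.74 FPKM in vcS5, against 39.5 and 33.6 FPKM in wild type. Nearest to Igkc were Adssl1, Phtf2 and Gm16026, at distances of 0.05, 0.07 and 0.09. Phtf2 had 12.9 and 10.8 FPKM in vcS5 and 24.7 and 19.9 FPKM in wild type. With 4 libraries this describes likeness of level pattern and no more.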

How the data were processed

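Splenocyte RNA was extracted with Trizol, and 2 µg went into TruSeq v2 libraries read as 50 bp single ends, as the labels' protocols state, with a kit that keeps no strand. Bowtie2 2.1.0, TopHat2 2.0.9, Cufflinks, Cuffdiff 2.1.1 and mm10 are named in the submitters' processing notes, and the settings are not given in the sources used here. The authors deposited 1 table with an FPKM per library and, per the file headers, a group FPKM and their own comparison as a log2 fold change, p-value and q-value. Mean FPKM is above 1 in all rows while ranks run to 23180, so the table is part of a longer one.

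Values were transformed as log2(FPKM + 1), which understates changes of low rows, and fitted with limma 3.58.1 in R 4.3.3 with variance trend and no covariates, over 14226 rows and 4 libraries, two-sided, with Benjamini-Hochberg adjustment. Degrees of freedom were 2 (residual) and 3.17 (prior). A filter at a mean FPKM of 1 removed 0 rows. Folds are ratios of mean FPKM. Shares, ratios and differences from B cell markers were computed per library and compared by exact permutation over libraries. The scripts were tested on simulated data. Rows without a deposited symbol took that of their first Ensembl identifier from a table of gene names, and 12571 of 12806 rows with an identifier had a gene type in GENCODE vM21. Coordinates are 1-based on mm10. Sequences come from GENCODE vM21 transcripts.

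The members and lists were chosen with earlier results of these data known. Named genes are the 8 constant genes, up to 4 genes of each list that passed with the largest change, or else the 2 with the highest mean, a few genes fixed by name, and the 3 nearest rows of the members with the lowest p and the highest level. T cell, neutrophil, erythroid and macrophage markers are given as counts and sums, and 1 gene fixed by name is not reported here. Nothing in the labels gives a batch, and the p-values measure the spread between the libraries sequenced. The alternatives tried were other pseudocounts (0.1 and 5), filters, scalings, a fit without the variance trend, a replicate block and leaving out each library.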

Additional observations from a re-analysis of the deposited data

How the results depend on the processing

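The call of Ighg3 held in the 7 fits with another pseudocount, a stricter filter, another scaling, variance model or block (adjusted p from 0.0136 to 0.0278 by limma), and the counts of called rows in those fits ran from 932 to 1278. Leaving the filter out changed nothing, since it had removed 0 rows. Replicate numbers are shared between groups, but nothing says that they pair the libraries. Deviations of libraries with the same number correlated at 0.176 across rows, and a replicate block gave 1028 called rows and 1 constant gene. With a library left out, 71 to 245 rows and 0 to 1 constant genes passed by limma, the lone library being assumed to vary like the other group. The log2 change then ran from -4.67 to -3.18 for Ighg3, -0.89 to 0.17 for Ighm, -1.57 to 0.74 for Ighg1 and -1.09 to 0.25 for Ighg2c. Share differences in percentage points ran from -1.30 to 12.2 for Ighm, -1.97 to 2.03 for Ighg1, -0.645 to 0.463 for Ighg2b, -1.45 to 2.56 for Ighg2c and -10.3 to 2.45 for Igha. Relative to B cell markers the differences ran from -0.077 to 0.74 for Igha and -0.35 to 2.23 for Ighg1. Among switched isotypes the Ighg2b share was higher by 2.98 percentage points, where Ighm no longer enters the sum. Sums without Ighd and with the highest row of a member were not run, since Ighd had no row and each member had 1. Leaving out libraries for the gene lists was chosen after the data were seen. With 2 libraries a group, no exact permutation p could pass the threshold, and the unknown depth limits what can be said of rows near 1 FPKM.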

Other observations

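The annotated Igha and Ighg1 genes extend past their deposited rows into the exons that encode the membrane anchor, and a row without identifier covers them in each case. The row over the last exons of Igha (chromosome 12, 113254928 to 113256498, with 1470 bases of annotated Igha exon) had 3.30 and 3.93 FPKM in vcS5 and 8.16 and 6.19 FPKM in wild type. Per 100 FPKM of Igha this was 0.543 and 0.397 FPKM in vcS5 and 0.434 and 0.471 FPKM in wild type, so the groups overlapped (exact permutation p = 1.0). The row over the last exons of Ighg1 had 5.80 and 8.59 FPKM in vcS5 and 12.8 and 6.24 FPKM in wild type, or 4.76 and 3.33 FPKM per 100 FPKM of Ighg1 in vcS5 and 2.42 and 5.90 FPKM in wild type. The joining chain transcript Igj, set beside the 12 B cell markers, stood at 2.36 and 1.90 on the log2 scale in vcS5 and at 2.00 and 0.96 in wild type, which also overlapped.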
